A study of Sorghum bicolor with 24 samples.

Results

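The histone genes of sorghum (Sorghum bicolor) roots were followed as a gene family whose canonical members are transcribed mostly in cells that copy their DNA. Members were the genes with a Sobic identifier whose Swiss-Prot description names histone H1, H2A, H2B, H3 or H4, leaving out enzymes that modify histones. This rule found 60 genes, the same in both deposited count tables, among 35907 genes listed for the phosphorus experiment and 35842 for the strigolactone experiment. By description, 5 encoded H1, 10 H2A, 6 H2A variants of the H2A.Z type, 3 H2AX, 13 H2B, 5 H3.2, 5 H3.3, 2 H3 type 2 and 11 H4. One of the 5 H1 genes, Sobic.010G079900, carries a second description in the tables as an EH domain-binding protein, so its class is uncertain. Enough reads for testing were present for 52 members in the phosphorus experiment and 51 in the strigolactone experiment.

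Histones H2A, H2B, H3 and H4 form the protein core around which DNA is wound in a nucleosome, and linker histone H1 binds the DNA between nucleosomes. In plants the canonical genes (H2A, H2B, H3.2 and H4) are transcribed mostly in S phase, when newly copied DNA needs new nucleosomes, so in a root their transcripts come largely from dividing cells of the meristem. Replacement histones (H3.3 and H2A.Z) are made outside S phase as well and are placed in transcribed or regulatory chromatin, and H2AX is the variant that is phosphorylated at DNA breaks.

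Roots were sequenced in 24 libraries forming 8 groups of 3. In the phosphorus experiment, roots labelled P deficiency at 4 d and 7 d were each set against mock roots of the same day. In the strigolactone experiment, roots given GR245DS, a synthetic strigolactone analogue, for 3 h or 6 h were each set against mock roots of the same hour. The sources used here give neither the genotype nor the age of the plants, the dose of GR245DS or the phosphate supply, and do not say whether the 3 libraries of a group came from separate plants, so p-values measure the spread between these libraries, which may be technical. Libraries held 32631226 to 45292506 counts in the phosphorus experiment and 31677623 to 38706195 in the strigolactone experiment. Phosphate starvation usually raises transcripts of SPX1, which restrains the starvation response, and of SQD2, which makes lipids that replace phospholipids. Both were lower in roots labelled P deficiency, so directions here follow the labels as deposited. Whether the labels P deficiency and mock were exchanged was not tested, and an exchange would reverse the sign of every comparison of P deficiency with mock. At 4 d SPX1 (Sobic.004G084900) was at 2.2 ± 0.313 CPM against 255 ± 11.7 CPM in mock (SD, n = 3), and SQD2 (Sobic.003G076900) at 5.69 ± 0.746 CPM against 1500 ± 31.1 CPM in mock. CPM are counts relative to the library total, as edgeR's cpm function gives them with TMM scaling.

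Some libraries stood apart from others of their own group before any treatment was compared. In replicate 1 labelled P deficiency at 4 d, 33 of the 37 tested canonical histone genes were at their lowest within the group, where 35.2% of all genes were. Replicate 1 of mock at 7 d was lowest for 34 of 37 (38.1% of all genes). In the strigolactone experiment, replicate 3 of GR245DS was lowest for 35 of 36 canonical genes at 3 h (41.6% of all genes) and for 34 of 36 at 6 h (40.1%), and replicate 3 of mock at 6 h for 26 of 36 (40.3%). The third replicates were also the richest in leaf transcripts: the summed level of 16 genes for Rubisco small subunit and chlorophyll-binding proteins was 761, 614, 667 and 991 CPM in the third replicates of GR245DS at 3 h, mock at 3 h, GR245DS at 6 h and mock at 6 h, against 233 to 462 CPM in the other 8 libraries. The same leaf genes summed to 6.93 to 19.1 CPM in the phosphorus experiment. Mature root markers (Casparian strip, xylem protease and root hair genes) summed to 303 to 410 CPM across the libraries. At 4 d this sum was 328 to 356 CPM with the label P deficiency, against 373 to 410 CPM in mock. The sum hides the spread of its 7 tested genes. Their median SD of log2 CPM within groups was 0.90 in the strigolactone experiment, against 0.36 over all genes. In the phosphorus experiment it was 0.29, against 0.26 over all genes. The part of these differences in the results was not tested, and values without the libraries concerned are given below.

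The summed level of all histone genes overlapped between treated and mock roots in every comparison except that at 7 d. At 4 d the sum was 3720, 4230 and 4620 CPM in roots labelled P deficiency, against 4040, 4430 and 4170 CPM in mock. At 7 d it was 4080, 3990 and 3950 CPM in those labelled P deficiency, against 4110, 5210 and 4710 CPM in mock. All 3 libraries labelled P deficiency at 7 d thus lay below every mock library, while at 4 d the groups overlapped. After 3 h the sum was 3830, 4360 and 2970 CPM with GR245DS, against 3840, 4140 and 5440 CPM in mock. After 6 h it was 3910, 4050 and 2990 CPM with GR245DS, against 4010, 4470 and 3830 CPM in mock. The strigolactone groups overlapped at both hours. As ratios of group means these were 0.995 and 0.857 for P deficiency over mock at 4 d and 7 d, and 0.832 and 0.89 for GR245DS over mock at 3 h and 6 h. Without the third replicates the GR245DS ratios were 1.03 at 3 h and 0.939 at 6 h. In such bulk RNA, fewer dividing cells and less histone RNA per dividing cell cannot be told apart.

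**Figure D1:**
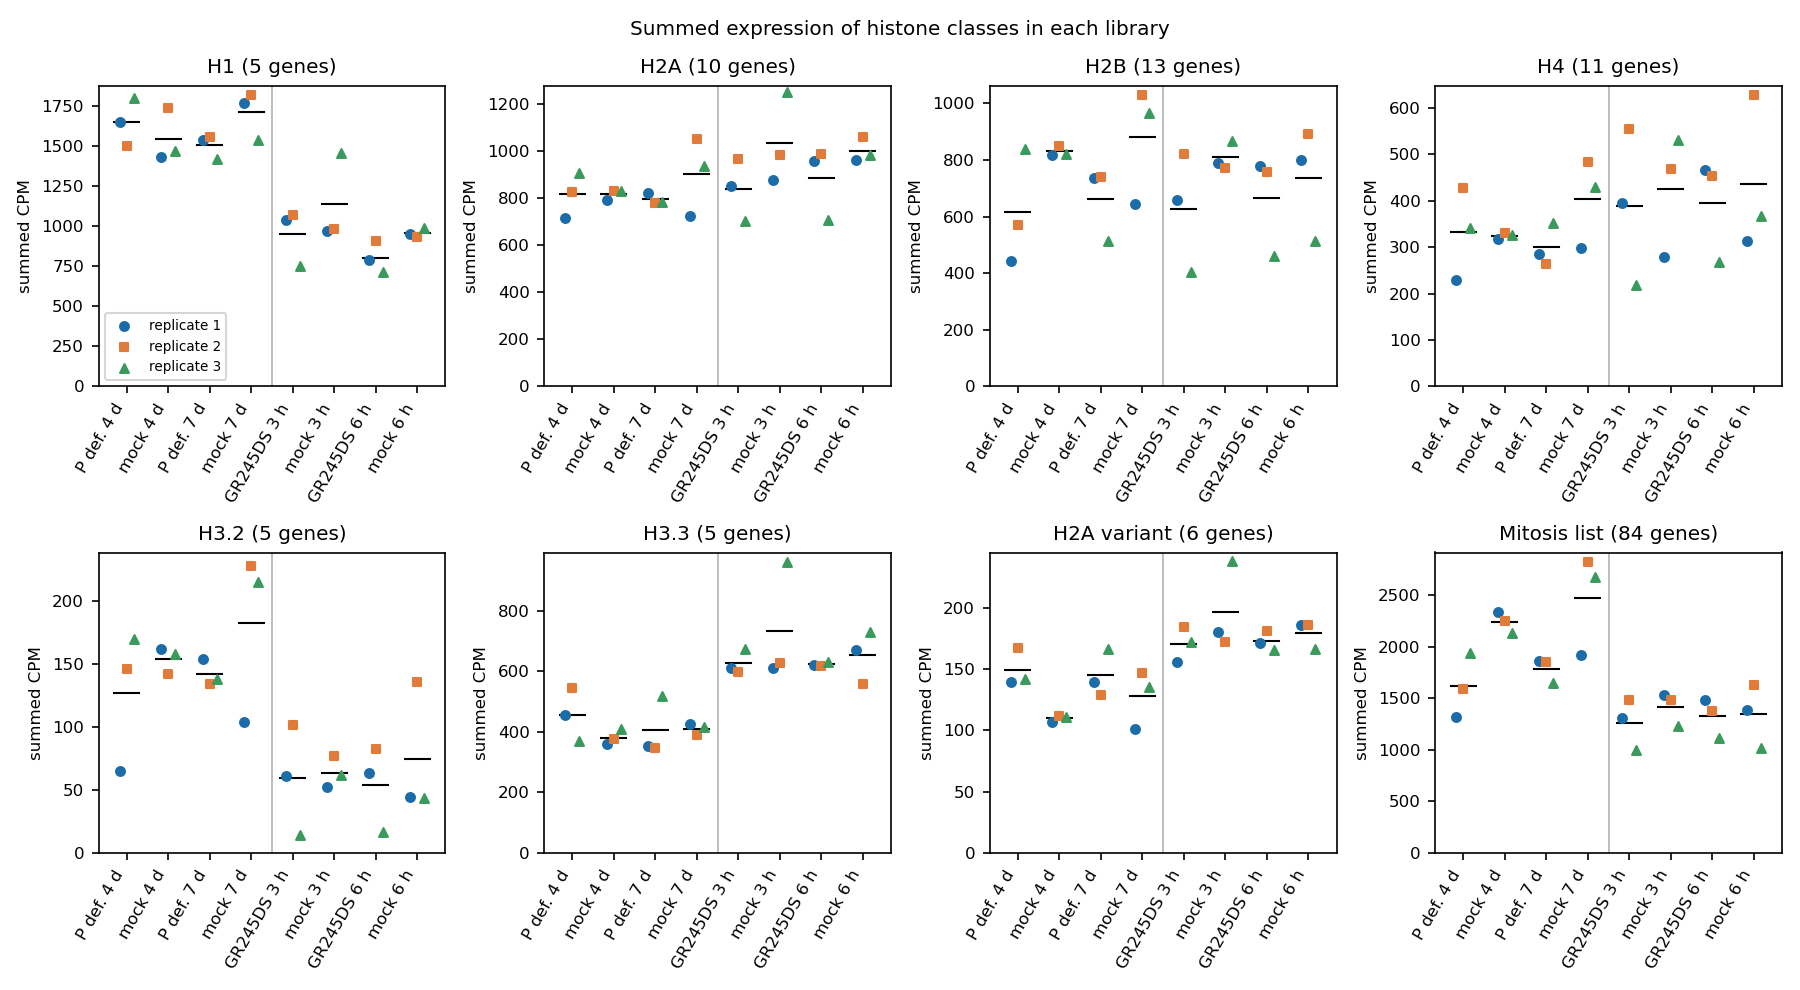
Summed CPM of each histone class, and of the 84 genes of the mitosis list, in all 24 libraries. Each point is 1 library, drawn by its replicate number, lines are group means, and each axis starts at 0; H3.2 at 3 h runs from 14.6 CPM in replicate 3 of GR245DS to 102 CPM in replicate 2 of GR245DS.

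The classes behaved differently from each other within these sums. Canonical H2B summed to 442, 570 and 840 CPM in roots labelled P deficiency at 4 d, against 818, 851 and 821 CPM in mock, so that replicates 1 and 2 lay below mock and replicate 3 within its range. Genes of the H2A.Z type summed to 139 to 167 CPM in those labelled P deficiency, against 107 to 112 CPM in mock, without overlap. Most of this sum came from 1 gene, Sobic.001G094500, at 111 to 144 CPM in those labelled P deficiency. The log2 fold changes of the 2 tested genes of this type were 0.59 and -0.22, so the sum does not stand for both. H3.2 summed to 65, 146 and 170 CPM in those labelled P deficiency at 4 d, against 162, 142 and 158 CPM in mock, so that replicate 1 alone was far from the rest. H3.3, a replacement histone, gave 457, 544 and 370 CPM in those labelled P deficiency, against 360, 376 and 408 CPM in mock, and its lowest library with that label was replicate 3, which was the highest for H2B and H3.2. After 3 h, H3.2 was at 61.3, 102 and 14.6 CPM with GR245DS, against 52.4, 76.9 and 62.3 CPM in mock. After 6 h it was at 63.5, 82.3 and 16.9 CPM with GR245DS, against 44.5, 136 and 43.5 CPM in mock. The groups overlapped at both hours, and the third GR245DS library was the lowest each time.

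A few genes carried much of the family's RNA, and levels between genes are given here per transcript length, as the FPKM that the authors deposited. In the phosphorus experiment the H1 gene Sobic.006G186700 had the highest mean over 12 libraries, 525 FPKM, followed by the H3.3 gene Sobic.001G350501 at 376 FPKM and the H1 gene Sobic.002G056300, also at 376 FPKM. In the strigolactone experiment Sobic.001G350501 came first at 562 FPKM, followed by Sobic.002G330000 (H2A.2) at 328 FPKM and Sobic.002G056300 at 299 FPKM, while Sobic.006G186700 was at 212 FPKM, rank 4. Sobic.010G021300, the H1 gene that marks this family here, ranked 7 of 60 in the phosphorus experiment, at 130 FPKM, and 26 in the strigolactone experiment, at 38 FPKM. The experiments were tabulated separately, so these levels are set side by side without a test. The 5 members with most reads held 45.7% of the summed histone CPM in the phosphorus experiment and 45.3% in the strigolactone experiment. Sobic.006G186700 and Sobic.002G330000 are named for this order, after their values were seen.

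At 4 d, 4 histone genes were higher and 1 was lower with the label P deficiency than in mock, by edgeR's quasi-likelihood test with Benjamini-Hochberg adjustment over all genes at 0.05. The 4 higher genes were an H1, an H2A variant of the H2A.Z type, a canonical H2A and an H3.3, and the lower gene was an H2B. These 5 of 52 tested members are 9.62%, where 38.6% of all 25137 genes were called, 20.3% higher and 18.4% lower. The share of histone genes called was below that of all genes, a difference that was not tested. Their median log2 fold change was -0.10, against 0.02 over all genes, and 33 of 52 were negative.

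Sobic.010G021300, an H1, was at 301, 287 and 192 CPM in roots labelled P deficiency at 4 d, against 113, 197 and 143 CPM in mock. Its lowest library labelled P deficiency lay just below the highest mock library, so the groups overlapped. Its level was 260 ± 59.1 CPM against 151 ± 42.8 CPM in mock (SD, n = 3 each), a 1.72-fold difference (log2 fold change 0.79 ± 0.28, SE, edgeR adjusted p = 0.0403). This call was lost without replicate 1 labelled P deficiency (0.63, edgeR adjusted p = 0.156), replicate 2 labelled P deficiency (0.67, 0.136), replicate 1 of mock (0.62, 0.149) or replicate 3 of mock (0.72, 0.128), with no filter on low counts (0.76, 0.0612), and with a minimum of 30 reads in 3 libraries (0.75, 0.0504). At 7 d the gene was at 148, 181 and 263 CPM in roots labelled P deficiency, against 238, 241 and 135 CPM in mock, and its log2 fold change of -0.05 ± 0.28 did not pass (edgeR adjusted p = 0.9). Each group at 7 d spanned nearly the whole range of the other.

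The H1 gene with most reads over the 24 libraries, Sobic.002G056300, was at 476, 420 and 507 CPM in roots labelled P deficiency at 4 d, against 428, 531 and 458 CPM in mock. These overlapping groups gave a log2 fold change of -0.01 ± 0.12 (SE, edgeR adjusted p = 0.934). At 7 d it was at 419, 430 and 416 CPM in those labelled P deficiency, against 513, 552 and 487 CPM in mock. All 3 libraries labelled P deficiency were below every mock library, with a log2 fold change of -0.30 ± 0.12 that missed the threshold (edgeR adjusted p = 0.0689) and passed with DESeq2 (adjusted p = 0.037).

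Sobic.001G094500, an H2A variant 3 of the H2A.Z type, was at 127, 144 and 111 CPM in roots labelled P deficiency at 4 d, against 79.2, 86.7 and 86.8 CPM in mock. The groups did not overlap, at 127 ± 16.5 CPM against 84.3 ± 4.36 CPM in mock (SD, n = 3 each; log2 fold change 0.59 ± 0.14, SE, edgeR adjusted p = 0.00497), and the gene kept its call whichever library was left out, with log2 fold changes of 0.46 to 0.67. At 7 d it was at 111, 105 and 145 CPM in those labelled P deficiency, against 83.2, 102 and 95.4 CPM in mock. The groups again did not overlap, but the log2 fold change of 0.36 ± 0.14 missed the threshold (edgeR adjusted p = 0.0601). The other tested gene of the H2A.Z type, Sobic.004G205300, was at 11.7, 23.5 and 31.3 CPM in those labelled P deficiency at 4 d, against 28.2, 25.1 and 24.1 CPM in mock. It followed the canonical pattern of a low replicate 1, and is named after its values were seen.

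Sobic.009G164900, a canonical H2A described as H2A.4, was at 376, 361 and 301 CPM in roots labelled P deficiency at 4 d, against 235, 265 and 261 CPM in mock. The groups did not overlap (346 ± 39.8 CPM against 253 ± 16.2 CPM in mock, SD, n = 3 each; log2 fold change 0.45 ± 0.12, SE, edgeR adjusted p = 0.0121). The call was lost without replicate 1 labelled P deficiency (0.35, edgeR adjusted p = 0.0839), replicate 2 labelled P deficiency (0.38, 0.07) or replicate 1 of mock (0.40, 0.0548). Of the other 9 tested H2A genes 8 had negative log2 fold changes at 4 d, so the class median was -0.32. At 7 d Sobic.009G164900 was at 284, 284 and 352 CPM in those labelled P deficiency, against 269, 289 and 268 CPM in mock, with overlapping groups (log2 fold change 0.15, edgeR adjusted p = 0.359).

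Sobic.004G188000, an H3.3 gene of low level, was at 8.02, 7.64 and 6.28 CPM in roots labelled P deficiency at 4 d, against 4.38, 4.34 and 4.14 CPM in mock. It did not overlap between the groups (7.31 ± 0.917 CPM against 4.29 ± 0.132 CPM in mock, SD, n = 3 each; log2 fold change 0.77 ± 0.21, SE, edgeR adjusted p = 0.00999), and lost its call without replicate 1 labelled P deficiency (0.66, edgeR adjusted p = 0.051). At 7 d it was at 5.49, 5.85 and 7.65 CPM in those labelled P deficiency, against 5.62, 3.55 and 4.68 CPM in mock, which overlapped (0.46 ± 0.20, edgeR adjusted p = 0.102). The H3.3 gene with most reads, Sobic.001G350501, was at 344, 394 and 284 CPM in those labelled P deficiency at 4 d, against 281, 293 and 320 CPM in mock, and was not called (log2 fold change 0.19 ± 0.16, edgeR adjusted p = 0.359). All 3 tested H3.3 genes had positive log2 fold changes at 4 d, with a median of 0.46, and the median of all 5 tested replacement genes was also 0.46.

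Sobic.003G092200, described as H2B.5, was the lower gene at 4 d, with 7.64, 10.5 and 15.9 CPM in roots labelled P deficiency, against 20, 17.3 and 20.7 CPM in mock. The groups did not overlap (11.4 ± 4.21 CPM against 19.3 ± 1.8 CPM in mock, SD, n = 3 each; log2 fold change -0.77 ± 0.24, SE, edgeR adjusted p = 0.0206). It lost its call without replicate 1 labelled P deficiency (-0.59, edgeR adjusted p = 0.0569) or replicate 1 of mock (-0.74, 0.0564). At 7 d it was at 14.4, 13.9 and 11.1 CPM in those labelled P deficiency, against 15.6, 20 and 23.6 CPM in mock, again without overlap (-0.59 ± 0.23, edgeR adjusted p = 0.068). Of the 12 tested H2B genes 11 were negative at 4 d, with a class median of -0.35. The H2B gene with most reads, Sobic.001G417000 (H2B.1), was at 98.4, 72.2 and 184 CPM in those labelled P deficiency, against 176, 186 and 176 CPM in mock. Replicates 1 and 2 labelled P deficiency were far below mock and replicate 3 was level with it (log2 fold change -0.60 ± 0.34, edgeR adjusted p = 0.177).

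**Figure D2:**
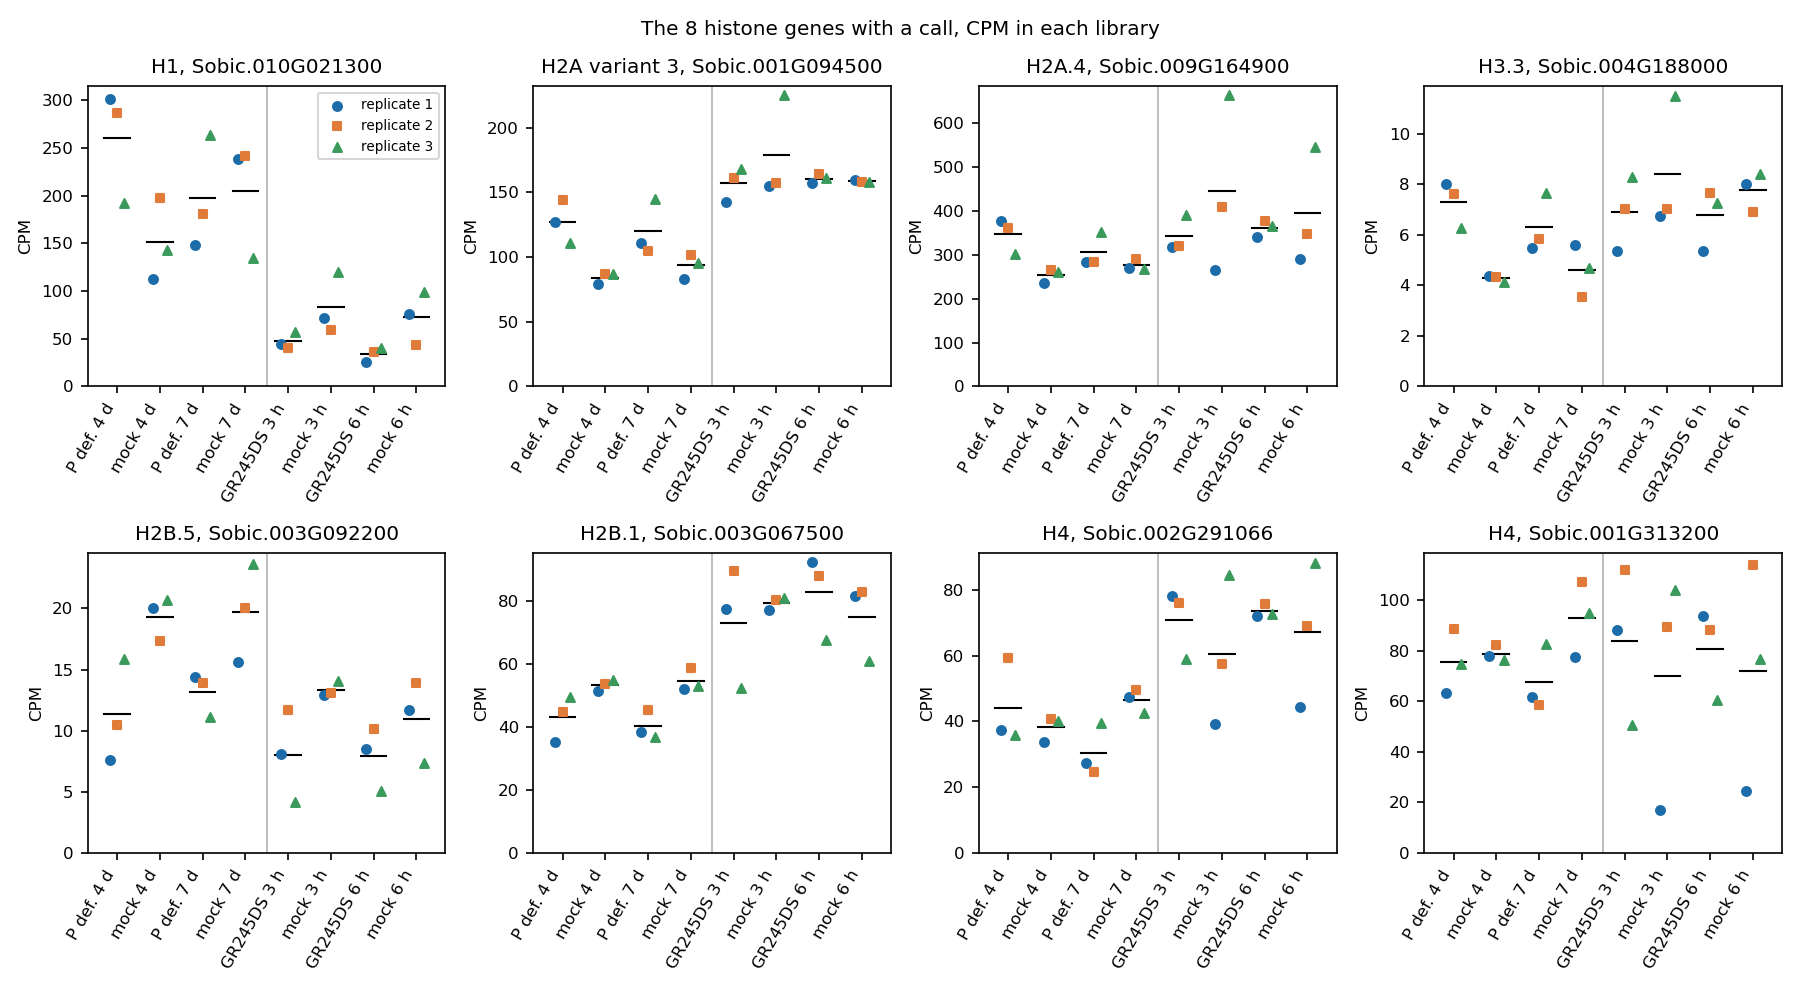
CPM of the 8 histone genes called at 4 d or 7 d, in every library. Points are libraries and the groups run from roots labelled P deficiency to mock at each day, then from GR245DS to mock at each hour; Sobic.001G094500 at 4 d shows 111 to 144 CPM in roots labelled P deficiency above 79.2 to 86.8 CPM in mock.

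The H4 and H3.2 genes were not called at 4 d. Sobic.001G313200, the H4 gene with most reads, was at 63.2, 88.5 and 74.6 CPM in roots labelled P deficiency, against 78.1, 82.2 and 76.2 CPM in mock, and the groups overlapped (log2 fold change -0.06 ± 0.16, edgeR adjusted p = 0.785). Sobic.004G170500, the H3.2 gene with most reads, was at 24.9, 52.5 and 64.8 CPM in those labelled P deficiency, against 64.5, 54.5 and 60.4 CPM in mock, with replicate 1 labelled P deficiency far below the other 5 libraries (-0.34 ± 0.32, edgeR adjusted p = 0.432). Over the classes, the median log2 fold change at 4 d was -0.01 for H1, 0.04 for H4, -0.34 for H3.2 and 0.01 for H2AX. Groups did not overlap for 4 tested members that were all above mock and 4 that were all below, or 8 of 52, where 27.6% of all genes were all above and 24.9% all below. One library weighed heavily on these counts. Without replicate 3 labelled P deficiency, which was the highest of its group for 25 of 37 canonical genes, 14 of 52 members were called, 5 higher and 9 lower (26.9%, against 40.4% of all genes), and Sobic.001G417000 was among the lower ones (-1.09, edgeR adjusted p = 0.0143). Without replicate 1 labelled P deficiency, 1 member was called, where 28.1% of all genes were. In that fit 24 of 52 members were negative and their median was 0.02.

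At 7 d, 3 histone genes were lower and 0 higher with the label P deficiency than in mock, and the canonical classes leaned below mock together. The lower genes were 1 H2B and 2 H4. These 3 of 52 are 5.77%, where 35.6% of all genes were called, 17.4% higher and 18.2% lower, and 12 members had an unadjusted p under 0.05. Counts by unadjusted p, here and below, stand without the share of all genes and do not measure an excess among the members. Log2 fold changes were negative for 44 of 52 members and for 34 of 37 canonical genes, with medians of -0.37 and -0.39, against -0.02 over all genes. Groups did not overlap for 1 tested member that was all above mock and 6 that were all below, against 22.9% and 23.1% of all genes. These counts show a lean of the family's log2 fold changes and few single genes past the threshold.

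Sobic.003G067500, an H2B.1, was at 38.5, 45.4 and 36.8 CPM in roots labelled P deficiency at 7 d, against 52.1, 58.7 and 53.1 CPM in mock. The groups did not overlap, and the gene was lower, at 40.2 ± 4.53 CPM against 54.6 ± 3.54 CPM in mock (SD, n = 3 each; log2 fold change -0.44 ± 0.13, SE, edgeR adjusted p = 0.0188). It lost its call without replicate 1 labelled P deficiency (-0.41, edgeR adjusted p = 0.0659), replicate 3 labelled P deficiency (-0.37, 0.0705) or replicate 2 of mock (-0.37, 0.0743). At 4 d the same gene was at 35.3, 44.7 and 49.6 CPM in those labelled P deficiency, against 51.3, 53.5 and 54.9 CPM in mock. All 3 were again below mock, with a log2 fold change of -0.30 ± 0.13 that missed the threshold (edgeR adjusted p = 0.0875).

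Sobic.002G291066, an H4, was at 27.4, 24.7 and 39.5 CPM in roots labelled P deficiency at 7 d, against 47.5, 49.7 and 42.5 CPM in mock. The groups did not overlap (30.5 ± 7.9 CPM against 46.6 ± 3.68 CPM in mock, SD, n = 3 each; log2 fold change -0.61 ± 0.21, SE, edgeR adjusted p = 0.035), yet the call was lost without replicate 1 labelled P deficiency (-0.54, edgeR adjusted p = 0.115), replicate 2 labelled P deficiency (-0.48, 0.138), replicate 1 of mock (-0.58, 0.0662) or replicate 2 of mock (-0.55, 0.114). At 4 d it was at 37.3, 59.3 and 35.8 CPM in those labelled P deficiency, against 33.8, 40.7 and 40.2 CPM in mock, and overlapped (0.21, edgeR adjusted p = 0.454). Sobic.001G313200, the other lower H4, was at 61.8, 58.6 and 82.7 CPM in those labelled P deficiency at 7 d, against 77.5, 107 and 94.9 CPM in mock. Replicate 3 labelled P deficiency lay above replicate 1 of mock, so the groups overlapped (67.7 ± 13.1 CPM against 93 ± 14.7 CPM in mock, SD, n = 3 each; log2 fold change -0.46 ± 0.16, SE, edgeR adjusted p = 0.0424). That call was lost without replicate 1 labelled P deficiency (-0.40, edgeR adjusted p = 0.137), replicate 2 labelled P deficiency (-0.36, 0.157), replicate 2 of mock (-0.34, 0.187) or replicate 3 of mock (-0.44, 0.0983), and with no filter on low counts (-0.44, 0.0534) or with only the groups compared in the fit (-0.45, 0.0713). With library totals in place of TMM both H4 genes missed the threshold, Sobic.002G291066 at -0.57 (edgeR adjusted p = 0.0563) and Sobic.001G313200 at -0.42 (edgeR adjusted p = 0.0722). All 10 tested H4 genes had negative log2 fold changes at 7 d, with a median of -0.42.

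Outside H2B and H4, no class gave a call at 7 d. The median log2 fold change was -0.38 for H2B, where 11 of 12 genes were negative, -0.46 for H2A, where 9 of 10 were, -0.38 for H3.2, -0.11 for H1 and -0.02 for H3.3. Sobic.004G170500 (H3.2) was at 65.1, 52.8 and 51.9 CPM in roots labelled P deficiency, against 41, 91.9 and 87.5 CPM in mock. Replicate 1 of mock was below all libraries labelled P deficiency and the other 2 were above them. The same mock library decided the count of calls: without it, 19 of 52 members were called, 2 higher and 17 lower (36.5%, against 39.8% of all genes). Without replicate 1 labelled P deficiency 0 members were called (8 with an unadjusted p under 0.05), where 29.4% of all genes were. Without replicate 2 of mock also 0 were called (3 under 0.05 unadjusted), where 28.1% of all genes were, with the members' median at -0.17 and 39 of 52 negative.

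**Figure D3:**
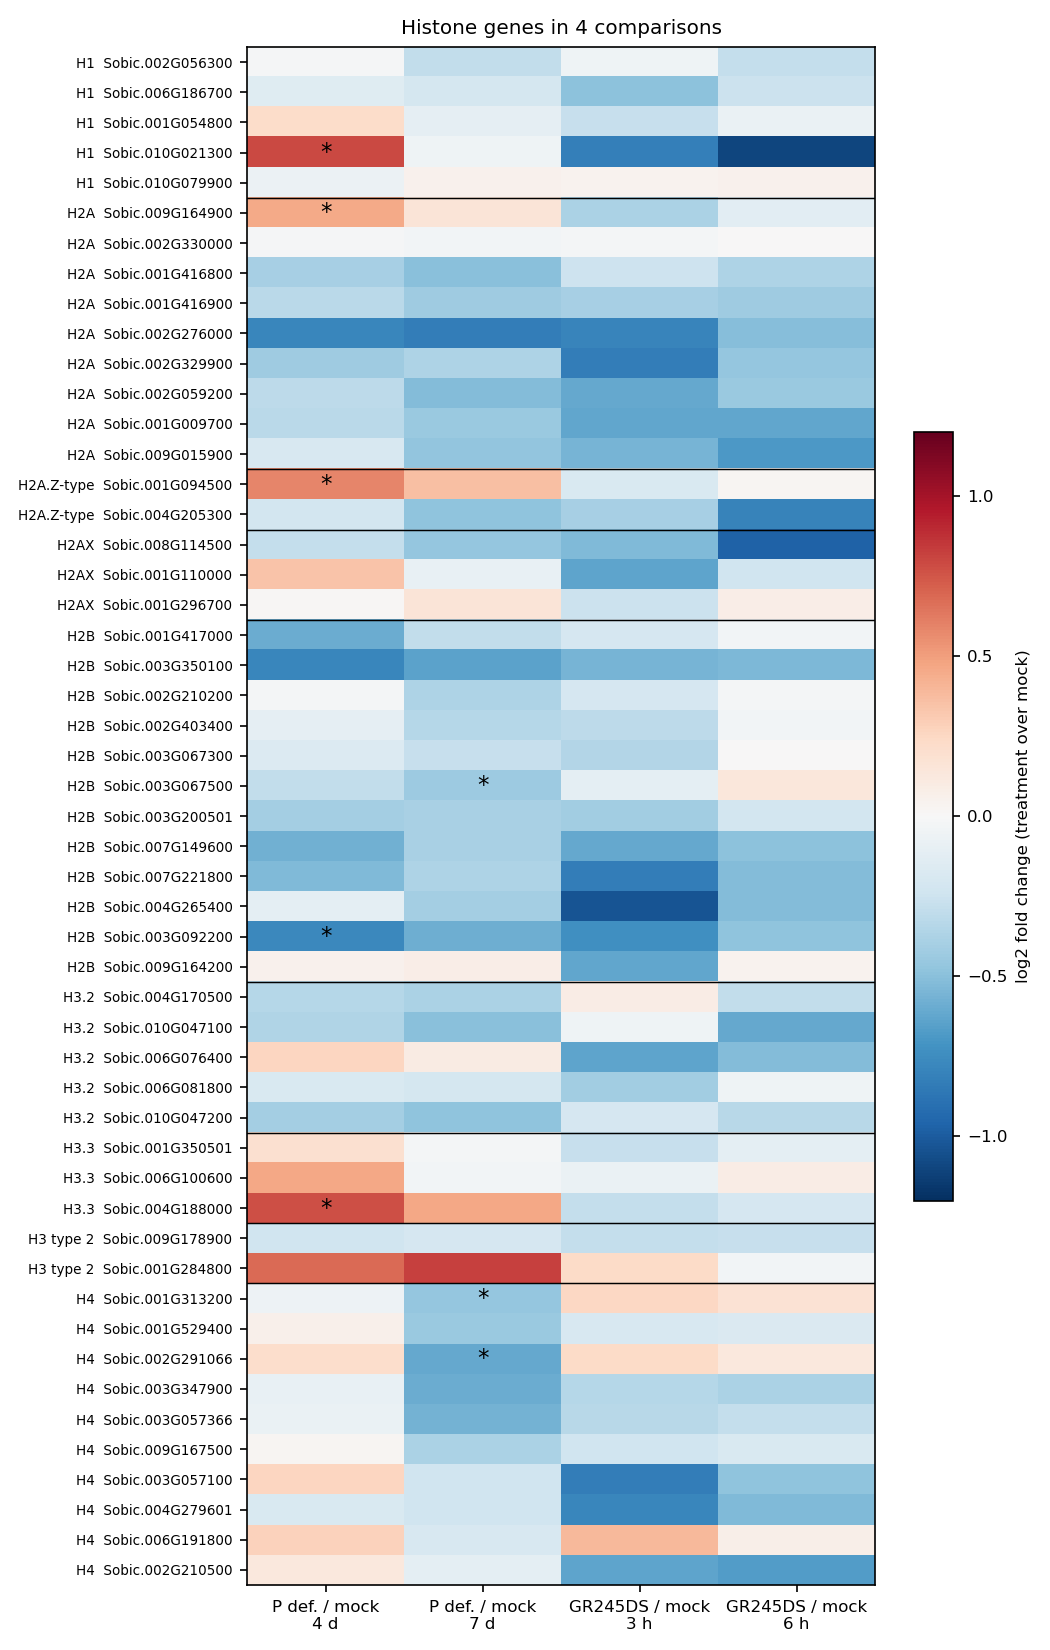
Log2 fold change of the 51 histone genes tested in both experiments (rows, by class) in the 4 comparisons with mock (columns), with blue below 0 and red above 0 as the colour bar gives. An asterisk marks edgeR adjusted p under 0.05, which 5 genes have at 4 d, 3 at 7 d and 0 at 3 h or 6 h.

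No histone gene was called at both days by edgeR with all groups in the fit, and the test of the difference between days called none of the members. Sobic.003G092200 (H2B.5) was called lower at both days with DESeq2 (adjusted p = 0.00447 at 4 d and 0.0498 at 7 d) and with edgeR fitted on the groups compared alone (adjusted p = 0.019 and 0.0419). For this interaction (7 d minus 4 d) 0 of 52 members passed edgeR's quasi-likelihood test, where 0.465% of all genes did, and 1 member had an unadjusted p under 0.05. That gene was Sobic.002G291066 (H4), at -0.82 ± 0.29 (SE, unadjusted p = 0.0149 and adjusted p = 0.377 by edgeR), and Sobic.010G021300 (H1) gave -0.84 ± 0.39 (unadjusted p = 0.0523, adjusted p = 0.607). The difference of response was negative for 40 of 52 members, with a median of -0.17 against -0.05 over all genes, and for 10 of 10 H4 genes, with a median of -0.48. The mock roots themselves gave 0 called members at 7 d against 4 d, where 1.34% of all genes were called, and 0 members with an unadjusted p under 0.05. Their log2 fold changes were positive for 48 of 52 members, with a median of 0.19 against 0.04 over all genes. DESeq2 called 0 members in either comparison, where 1.59% of all genes were called for the interaction and 3.15% for mock. Both patterns depended on replicate 2 of mock at 7 d, which was the highest of its group for 30 of 37 canonical genes: without it the median was 0.01 for the difference of response, with 26 of 52 negative, and 0.05 for mock at 7 d against 4 d, with 20 negative. The difference of response also depended on roots labelled P deficiency at 4 d: its median was 0.03 without replicate 3, with 25 of 52 negative, and -0.05 without replicate 2, with 31 negative.

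After 3 h of GR245DS, 0 of 51 tested histone genes passed the test, where 1.01% of all 24814 genes did. Unadjusted p was under 0.05 for 2 members by edgeR. DESeq2 called 0 members, where 2.27% of all genes were called, with 3 members under 0.05 unadjusted. Log2 fold changes were negative for 45 of 51 members, including 9 of 9 H2A and 12 of 12 H2B genes, with a median of -0.34 against -0.02 over all genes. Groups did not overlap for 0 members all above mock and 7 all below, where 6.54% and 5.4% of all genes were so placed. By class the median was -0.56 for H2A, -0.49 for H2B, -0.29 for H4, -0.28 for H1, -0.28 for H3.3 and -0.20 for H3.2. Without the third replicates of all 4 groups, the ones rich in leaf transcripts, 28 of 52 tested members were negative, with a median of -0.04, and 0 were called (4 under 0.05 unadjusted), against 1.47% of all genes.

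After 6 h of GR245DS, 0 of 51 members passed, where 0.484% of all genes did, and 1 had an unadjusted p under 0.05. DESeq2 also called 0 members, where 1.3% of all genes were called, with 1 member under 0.05 unadjusted. Log2 fold changes were negative for 41 of 51, with a median of -0.28 against -0.03 over all genes, and groups did not overlap for 0 members all above mock and 2 all below (7.21% and 5.33% of all genes). The class medians were -0.45 for H2A, -0.33 for H3.2, -0.26 for H1, -0.24 for H4 and -0.13 for H2B. Without the third replicates, 38 of 52 tested members were negative, with a median of -0.19, and 0 were called (7 under 0.05 unadjusted), against 0.533% of all genes. Single libraries weighed on this lean. Without replicate 3 of GR245DS alone the median was -0.04, and without replicate 2 of mock alone -0.06, with 30 of 53 tested members negative in each case. Leaving out any other 1 library of the 6 h groups gave medians from -0.35 to -0.47. The difference of response between the hours called 0 members and 0% of all genes, with a median of 0.11 over the members. Mock at 6 h against 3 h also called 0 members and 0% of all genes, with a median of -0.06. In both, 0 members had an unadjusted p under 0.05 by edgeR, and DESeq2 called 0 members.

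Sobic.010G021300 (H1) was the histone gene with the smallest p at both hours. At 3 h it was at 44, 40.3 and 57.2 CPM with GR245DS, against 71.6, 59 and 120 CPM in mock. At 6 h it was at 25.4, 36.6 and 40.3 CPM with GR245DS, against 76.2, 43.8 and 98.9 CPM in mock. Each GR245DS library was below every mock library of its hour, and within each replicate number the GR245DS level was 0.615, 0.684 and 0.478 of mock at 3 h and 0.333, 0.834 and 0.408 of mock at 6 h. The log2 fold change was -0.82 ± 0.33 at 3 h (unadjusted p = 0.0303, adjusted p = 0.538 by edgeR) and -1.10 ± 0.33 at 6 h (unadjusted p = 0.00722, adjusted p = 0.421 by edgeR), and neither passed. Libraries of this experiment that share a replicate number deviated together, so a fit with the number as a block was also made. It called this gene lower at 6 h (-1.04, edgeR adjusted p = 0.0304), the only member called, or 1.96% of 51 where 2.05% of all genes were called. At 3 h the block fit called 0 members by adjusted p, where 3.13% of all genes were called, and the smallest adjusted p of a member was 0.0669. Unadjusted p was under 0.05 for 18 of 51 members, a count at another threshold that cannot be set against that 3.13%. In the block fit, log2 fold changes were negative for 46 of 51 members at 3 h, with a median of -0.48 against -0.03 over all genes. At 6 h they were negative for 41 of 51, with a median of -0.24 against -0.01. With the block and without the third replicates, 0 members were called at either hour, with 5 at 3 h and 8 at 6 h under 0.05 unadjusted. Of all genes, 2.48% were called at 3 h and 1.08% at 6 h. In this fit, 28 of 52 members were negative at 3 h, with a median of -0.04 against -0.02 over all genes. At 6 h 32 of 52 were negative, with a median of -0.18 against -0.01. The lean of the block fit at 3 h thus depended on the third replicates.

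Other histone genes with many reads showed the pull of single libraries in the strigolactone experiment. Sobic.002G056300 (H1) was at 326, 370 and 260 CPM after 6 h of GR245DS, against 403, 382 and 381 CPM in mock, without overlap (log2 fold change -0.29, not called). Sobic.001G313200 (H4) was at 88.3, 112 and 50.8 CPM after 3 h of GR245DS, against 16.9, 89.3 and 104 CPM in mock, where replicate 1 of mock was the lowest of the 6. Sobic.004G170500 (H3.2) was at 18.4, 34 and 5.89 CPM after 3 h of GR245DS, against 11.4, 23.5 and 19.7 CPM in mock, with replicate 3 of GR245DS the lowest. Replicate 3 of mock at 3 h was the highest of all 12 libraries for the H3.3 gene Sobic.001G350501, which was at 439, 421 and 486 CPM with GR245DS against 445, 460 and 728 CPM in mock. That library did not share the low canonical levels of replicate 3 in the other 3 groups: 11 of 36 canonical genes were lowest in it, where 39.8% of all genes were.

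Between libraries of the same group, the canonical histone classes had median spreads above that of all genes. So had H2AX and the H2A.Z type, while the H1 and H3.3 classes had median spreads below it. In the phosphorus experiment the median within-group SD of log2 CPM was 0.42 for the 52 tested members, against 0.26 over all genes (the 74.6th percentile of all genes). It was 0.50 for H3.2, 0.48 for H2A, 0.43 for H2AX, 0.40 for H4, 0.39 for H2B and 0.35 for the H2A.Z type, but 0.23 for H3.3 and 0.20 for H1. Single genes departed from their class: H2A genes ran from 0.06 to 1.55 and H2B genes from 0.16 to 0.61. In the strigolactone experiment the median was 0.61 for the members, against 0.36 over all genes (the 72.5th percentile). It was 1.18 for H3.2, 0.87 for H2A, 0.66 for H4, 0.65 for H2AX, 0.62 for the H2A.Z type and 0.45 for H2B, but 0.35 for H1 and 0.24 for H3.3. Here H2A genes ran from 0.20 to 1.11 and H2B genes from 0.19 to 1.12. The mitosis list varied to a similar extent, at 0.38 in the phosphorus experiment and 0.60 in the strigolactone experiment, and the DNA replication list less, at 0.28 and 0.31. These values describe spread and were not tested.

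**Figure D4:**
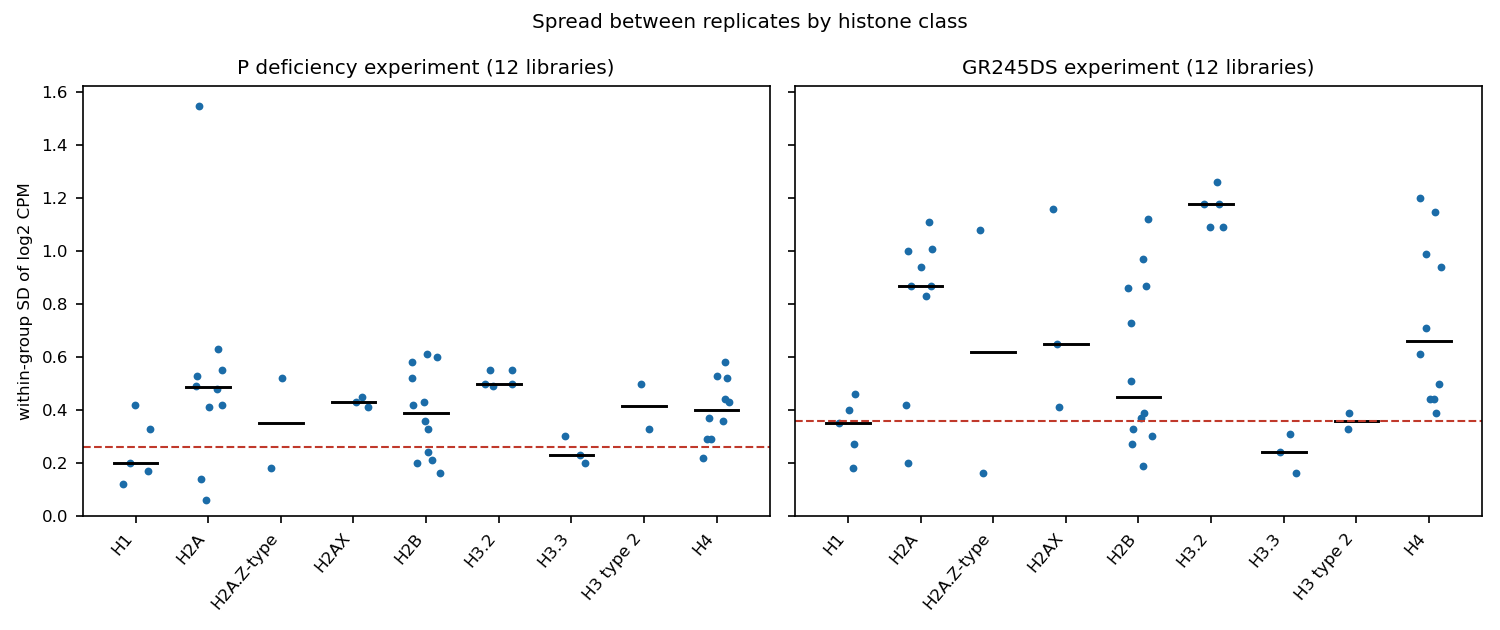
SD of log2 CPM between libraries of the same group, by histone class, for the phosphorus experiment and the strigolactone experiment. Points are genes, and the dashed line is the median of all genes, 0.26 and 0.36; the H3.2 genes lie around medians of 0.50 and 1.18, and the H3.3 genes around 0.23 and 0.24.

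Libraries low for the canonical histones were mostly also low for mitotic genes. Replicate 1 labelled P deficiency at 4 d was the lowest of its group for 59 of 75 tested mitosis and cytokinesis genes, and replicate 1 of mock at 7 d for 66 of 75. Replicate 3 of GR245DS was lowest for 62 of 77 at 3 h and for 57 of 77 at 6 h, and replicate 3 of mock at 6 h for 63 of 77. Mock at 3 h departed from this: replicate 1 was lowest for 20 of 36 canonical histone genes, and replicate 3 for 59 of 77 mitosis genes. Mock at 4 d did too: replicate 1 was lowest for 17 of 37 canonical histone genes and highest for 39 of 75 mitosis genes, of which 35 were lowest in replicate 3. In roots labelled P deficiency at 7 d, replicates 2 and 3 were each lowest for 18 canonical genes, and replicate 3 for 49 mitosis genes. Of the 5 tested replacement genes, replicate 1 of mock at 7 d was lowest for 2 and each of the other 4 low libraries for 1. Sobic.004G205300 (H2A.Z type) was the lowest of its group in all 5 of these libraries, while replicate 3 of GR245DS at 3 h was the highest for 4 of the 5 replacement genes. The library lowest for most canonical histone genes was thus also lowest for most mitosis genes in 5 of the 8 groups. These are counts over genes of the same libraries and were not tested.

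Other genes of the cell cycle were called in both directions in the phosphorus experiment. At 4 d, 3 of 75 tested mitosis and cytokinesis genes were higher and 10 lower with the label P deficiency, with a median log2 fold change of -0.34 and 62 negative, and 3 were higher and 10 lower at 7 d, with a median of -0.37 and 64 negative. The share called was 17.3% at each day, where 38.6% of all genes were called at 4 d and 35.6% at 7 d. The summed level of this list was 1320, 1590 and 1940 CPM in those labelled P deficiency at 4 d, against 2330, 2250 and 2130 CPM in mock. At 7 d it was 1860, 1850 and 1650 CPM in those labelled P deficiency, against 1920, 2820 and 2670 CPM in mock. The sums did not overlap between the groups at either day. MAP65-8 (Sobic.007G194000), of a family that bundles microtubules in the dividing cell, was at 14.4 ± 4.84 CPM in those labelled P deficiency at 4 d, against 81.3 ± 11.8 CPM in mock (SD, n = 3 each, as for the genes below; log2 fold change -2.50, edgeR adjusted p = 1.3e-05). At 7 d the kinesin KIN-7F (Sobic.006G162000), of a family that acts in cytokinesis, was at 48.8 ± 2.8 CPM in those labelled P deficiency, against 120 ± 19.3 CPM in mock (-1.30, edgeR adjusted p = 3.24e-06).

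Among genes of DNA replication, 5 of 66 tested were higher and 9 lower at 4 d, with a median of -0.16, and 6 were higher and 7 lower at 7 d, with a median of -0.25. These are 21.2% and 19.7% of the list, below the 38.6% and 35.6% of all genes called. RPA32C (Sobic.010G243100), a subunit of the complex that binds single-stranded DNA, was at 32.5 ± 7.49 CPM in roots labelled P deficiency at 4 d, against 11 ± 1.05 CPM in mock (log2 fold change 1.56, edgeR adjusted p = 6.54e-05). Replication factor C subunit 5 (Sobic.001G288500), part of the loader of the sliding clamp, had 0 counts in those labelled P deficiency at 7 d, against 183 counts over the 3 mock libraries, or 1.56 ± 0.742 CPM. Of 26 tested genes of G1 and S entry, 1 was higher and 5 lower at 4 d, and 2 were higher and 6 lower at 7 d, or 23.1% and 30.8%, also below the shares of all genes. The genes of smallest adjusted p in that list were inhibitors of cyclin-dependent kinases, which restrain entry into the cycle. Inhibitor 5 (Sobic.001G512000) was at 14.6 ± 1.77 CPM in those labelled P deficiency at 4 d, against 60.4 ± 3.61 CPM in mock (-2.05, edgeR adjusted p = 9.76e-08), and inhibitor 3 (Sobic.005G187000) was at 1.19 ± 0.0389 CPM in those labelled P deficiency at 7 d, against 13.7 ± 3.6 CPM in mock (-3.53, edgeR adjusted p = 1.87e-07).

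Histone chaperones, which carry histones to and from DNA, gave 5 higher and 2 lower of 16 at each day, 43.8% called against 38.6% of all genes at 4 d and 35.6% at 7 d. Log2 fold changes were negative for 11 of the 16 at each day, with medians of -0.20 at 4 d and -0.19 at 7 d. NAP1;2 (Sobic.009G213500), a chaperone of H2A and H2B, was lower, at 110 ± 9.12 CPM in roots labelled P deficiency at 4 d, against 238 ± 3.38 CPM in mock (log2 fold change -1.11, edgeR adjusted p = 2.75e-06), and at 106 ± 7.87 CPM in those labelled P deficiency at 7 d, against 232 ± 6.33 CPM in mock (-1.13, edgeR adjusted p = 2.13e-06). The 5 higher genes at 4 d, named after their values were seen, were each also called higher at 7 d: 2 for SPT16 and 1 for SSRP1, the subunits of the FACT complex that opens nucleosomes for polymerases, and 2 for HIRA, which deposits H3.3 outside S phase. SSRP1 (Sobic.003G038500) averaged 214 CPM in those labelled P deficiency at 4 d, against 121 CPM in mock (0.82, edgeR adjusted p = 0.000298). HIRA (Sobic.001G071400) averaged 86.6 CPM in those labelled P deficiency at 4 d, against 57.9 CPM in mock (0.58, edgeR adjusted p = 0.00116).

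Some markers of tissue composition were also called in the phosphorus experiment, where 38.6% of all genes were called at 4 d and 35.6% at 7 d, and their part in the histone values was not tested. The share called at 4 d and 7 d was 30.8% and 7.69% for root meristem regulators, 57.1% and 0% for mature root markers, and 20% and 30% for leaf markers. Of 13 tested root meristem regulators, 3 were higher and 1 lower at 4 d, among them PLT2 (Sobic.007G056700), which maintains the stem cell niche, at 21.1 ± 1.84 CPM in roots labelled P deficiency, against 13.8 ± 0.668 CPM in mock (log2 fold change 0.61, edgeR adjusted p = 0.0101). At 7 d 1 was lower, AIL1 (Sobic.001G485200), a gene of few reads, at 0.0514 ± 0.089 CPM in those labelled P deficiency, against 1.82 ± 0.987 CPM in mock (-5.11, edgeR adjusted p = 0.00559). The list as a whole did not follow it: log2 fold changes were positive for 9 of 13 genes at 4 d and 7 of 13 at 7 d, with medians of 0.21 and 0.22. Of 7 tested mature root markers, 4 were lower at 4 d and 0 were called at 7 d, and the Casparian strip protein CASP4 (Sobic.006G106900) was at 23.7 ± 3.42 CPM in those labelled P deficiency at 4 d, against 41.9 ± 8.55 CPM in mock (-0.82, edgeR adjusted p = 0.00714). Of 10 tested leaf markers, 2 were higher at 4 d and 3 at 7 d, all at a few CPM: CAB1 (Sobic.002G288300) was at 1.67 ± 0.287 CPM in those labelled P deficiency at 4 d, against 0.0889 ± 0.112 CPM in mock (4.21, edgeR adjusted p = 0.000368), and CP26 (Sobic.005G087000) at 3.72 ± 0.456 CPM in those labelled P deficiency at 7 d, against 0.96 ± 0.58 CPM in mock (1.93, edgeR adjusted p = 0.00128).

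In the strigolactone experiment 1 gene of all these lists was called, at both hours. It was 1.56% of the 64 tested DNA replication genes, where 1.01% of all genes were called at 3 h and 0.484% at 6 h. Whether these shares differ was not tested. The small chain of ribonucleotide reductase (Sobic.010G106300), the enzyme that makes the building blocks of DNA, was at 66.7 ± 10.4 CPM after 3 h of GR245DS, against 31.6 ± 1.29 CPM in mock (log2 fold change with its SE 1.08 ± 0.14, edgeR adjusted p = 0.00352). After 6 h it was at 66.8 ± 5.84 CPM with GR245DS, against 36.2 ± 3.35 CPM in mock (0.88 ± 0.14, edgeR adjusted p = 0.0176). The median log2 fold changes at 3 h and 6 h were -0.34 and -0.24 for the 77 tested mitosis genes, -0.26 and -0.10 for the 64 of DNA replication, and -0.14 and -0.05 for the 26 of G1 and S entry. For leaf markers they were 0.14 and -0.45 over 15 tested genes.

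**Figure D5:**
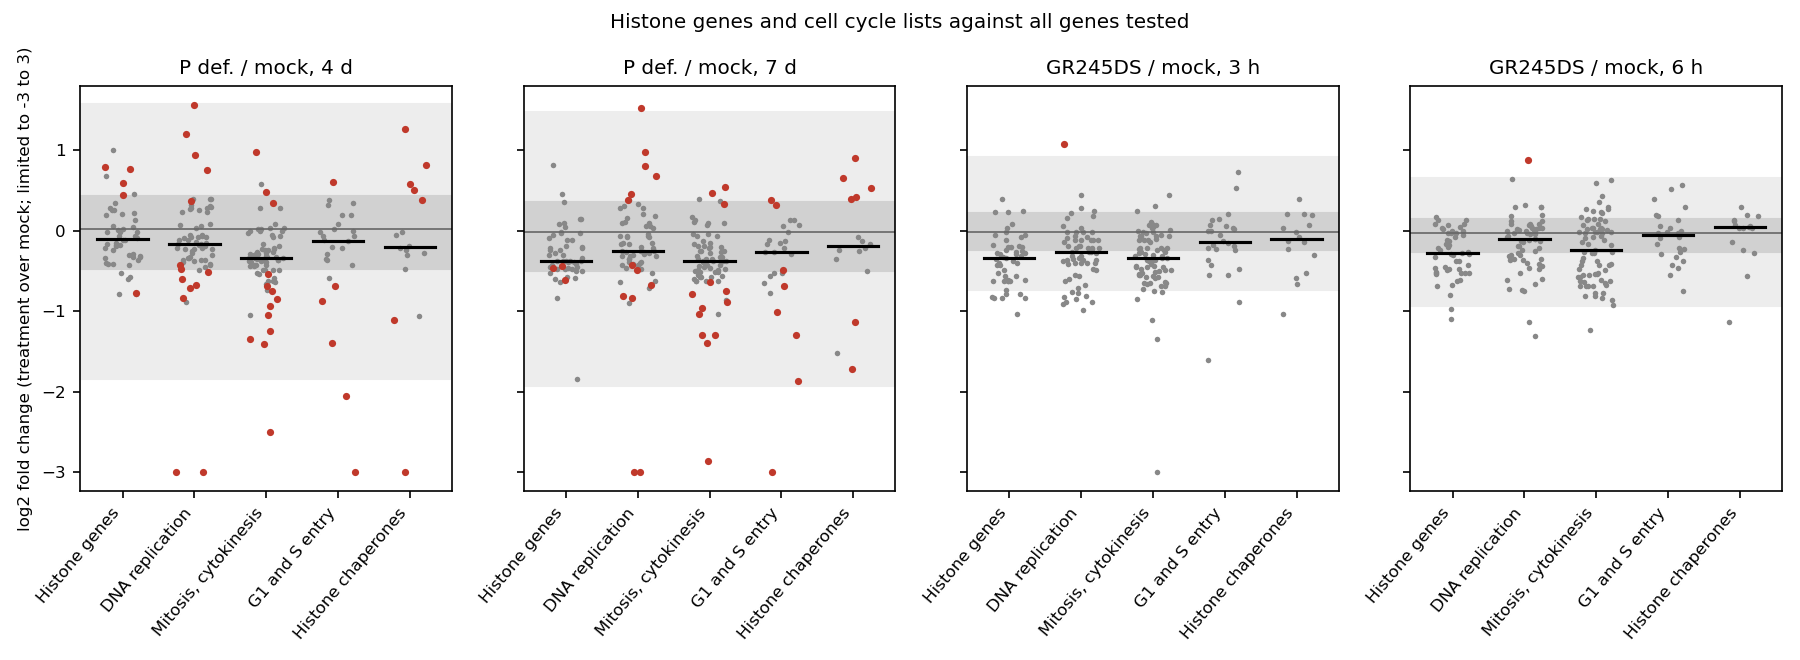
Log2 fold changes of the histone genes and 4 related lists in the 4 comparisons with mock. Points are genes, red where edgeR adjusted p is under 0.05, lines are medians, grey bands hold the middle 50% and 90% of all genes tested, and values beyond 3 are drawn at 3; the histone medians are -0.10, -0.37, -0.34 and -0.28 for P deficiency at 4 d and 7 d and for GR245DS at 3 h and 6 h.

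The 8 members that were tested in neither experiment were at or near 0 reads. Sobic.001G495700 and Sobic.005G082900, both H2A variants, had 0 counts in all 24 libraries. Sobic.001G297400, described as H3.3a and named after its values were seen, had 4, 12 and 5 counts in roots labelled P deficiency at 4 d, against 0, 0 and 0 in mock, and 2, 3 and 5 counts in those labelled P deficiency at 7 d, against 0, 1 and 0 in mock. All its libraries labelled P deficiency were above those of mock at both days, at levels near the detection limit, and it was called at 4 d by DESeq2, which filters low counts differently (adjusted p = 0.0115), and by edgeR with no filter on low counts (adjusted p = 0.0189). Sobic.008G126100 (H2A.5) was tested in the phosphorus experiment alone, where it had 151 counts over 12 libraries, against 45 in the strigolactone experiment. Many histone genes are near-identical copies, so how the authors' counting divided reads between such copies limits every value for a single gene, and class sums are less exposed to it.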

How the data were processed

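Per the labels' protocols, mRNA libraries were made with a Hieff NGS kit from 1 µg of total RNA. DESeq2 1.22.1, featureCounts, HISAT2 and fastp are named in the submitters' processing notes, without their roles. For the genome build and the strandedness: not given in the sources used here. Going by the file headers, the deposited tables hold a raw count and the authors' FPKM per gene and library. FPKM were used only for levels between genes.

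Members and gene lists were chosen with earlier results of these data known, by words in the descriptions. Each table was analysed separately: edgeR 4.0.16 in R 4.3.3 (quasi-likelihood, robust, TMM, filterByExpr), 12 libraries with 1 mean per group, Benjamini-Hochberg over all genes, threshold 0.05. The procedure was tested on simulated data with independent libraries and few changed genes. These lacked the shared replicate deviations of the strigolactone table and the many calls of the phosphorus table. Named histone genes were Sobic.010G021300, the member with most reads per class, and up to 3 called members per direction by p and by size; other names are said to follow from their values. From other lists, the called gene of smallest adjusted p was taken. Alternatives were RLE or total-count scaling, DESeq2 1.42.0, other filters, fewer groups in the fit, a 2-fold minimum, a replicate block and leaving libraries out. In the strigolactone table, deviations of same-numbered libraries correlated at 0.14 to 0.76 (18 pairs), so the numbers were taken to pair samples. The main fit left this pairing out, and only the fits with the replicate block used it. In the phosphorus table same-numbered libraries correlated at -0.29 to 0.46 and were not taken as pairs. No sequence or position is given, since the reference table holds none of these identifiers.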

Additional observations from a re-analysis of the deposited data

How the results depend on the processing

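Scaling, filters, tool and fit left the counts of called histone genes within 1.5 times of those reported, apart from the values given here. For genes lower at 7 d with the label P deficiency (3 reported), the count was 1 with library totals only, 5 with only the groups compared in the fit, 5 with DESeq2 and 0 with a minimum of 2-fold. Of all genes, these fits called 35.8%, 32%, 34.1% and 17.9% in either direction. For genes lower at 4 d (1 reported), the count was 2 with only the groups compared and 0 with a minimum of 2-fold, and for genes higher at 4 d (4 reported), 0 with a minimum of 2-fold. Of all genes, 39.2% were called at 4 d with only the groups compared and 18.6% with a minimum of 2-fold. With 1 library left out, the counts ran from 1 to 5 higher and 0 to 9 lower at 4 d, and from 0 to 2 higher and 0 to 17 lower at 7 d. In the other comparisons, these counts ran from 0 to 0. The share of all genes called with 1 library left out ran from 28.1% to 40.4% at 4 d and from 28.1% to 39.8% at 7 d. With the replicate block, 1 gene was lower after 6 h of GR245DS, where 2.05% of all genes were called. The block changed no other call. In the phosphorus table, where the numbers do not pair the libraries, the block gave 5 calls at 4 d and 3 at 7 d. Of all genes, 37% and 33.6% were called in these 2 block fits. The fits without the third replicates with the block were chosen after seeing the data. The cause of these changes was not tested. No result changed its direction past the threshold. A floor of 3 counts corresponds to 0.067 to 0.0991 CPM, so depth limits the members at or near 0 reads.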
